A study of Homo sapiens with 6 samples.

Results

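The host transcripts of small nucleolar RNAs (snoRNAs) and microRNAs are RNAs, mostly non-coding, whose introns or exons hold the sequence of a small RNA. They were chosen by name, as every gene called SNHG followed by a number or MIR followed by letters or digits and HG, plus GAS5, ZFAS1, DANCR and EPB41L4A-AS1. The count table held 69 such genes among 54259 rows. Of these, 36 had at least 60 counts summed over the 6 libraries and were tested, which were 19 of 21 SNHG genes, 13 of 44 microRNA hosts and 4 of 4 genes given by name. The summed count was the measured value used for this choice, and it does not use the group labels. Just inside the limit was MIR34AHG with 61 counts, and just outside it was MIR181A2HG with 59 counts.

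The question of the study was which genes depend on brachyury, a T-box transcription factor. The cells were MDA-MB-231, a human breast cancer line of mesenchymal type, and their RNA was read by RNA-Sequence. MDA-MB-231 shBry cells carried a short hairpin RNA against brachyury and MDA-MB-231 shNC cells were the control hairpin cells, with 3 libraries in each group. The labels give no clone, age of culture or time after transduction, and nothing in them says that the libraries came from separate cultures, so the p-values measure the spread between these libraries only. Each group is one line of hairpin-carrying cells as far as the labels say, so a difference between hairpins and a difference between lines cannot be told apart.

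The libraries held 19319411 to 22985371 counts, and a count of 0 allows a level of up to 0.126 to 0.162 CPM (counts scaled to a common library size), for counting error only (3 counts of the normalized total). The targeted gene, listed as T, had 0 counts in all 6 libraries, so the labels could not be checked on it. The line's markers VIM, CD44, AXL, KRT8 and KRT18 had mean levels of 440 to 3534 CPM, and 5 of 5 reached 1 CPM. Among ESR1, PGR, CDH1 and EPCAM, only EPCAM reached 1 CPM, at 4.28 CPM in shBry and 1.55 CPM in shNC cells. The 6 leukocyte markers summed to at most 0.229 CPM in any library, with 3 of 6 at 0. The deposited study description speaks of pericardial RNA, and among 5 mesothelial markers MSLN was present at 45.9 CPM in shBry and 32.1 CPM in shNC cells while WT1 and UPK3B stayed under 1 CPM. LRRN4 was at 7.08 CPM in shBry and 4.17 CPM in shNC cells, and CALB2 at 0.810 and 4.62 CPM, with 222 of its shNC counts in replicate 3. The mesothelial list summed to 51.4 to 57.7 CPM in shBry and 40.2 to 42.1 CPM in shNC libraries, and the part of this difference in the results was not tested. Of 4 fibroblast markers, COL1A1 had a mean of 21.9 CPM over the 6 libraries and DCN was at 0.

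Most snoRNAs guide the chemical modification of ribosomal RNA, with box C/D snoRNAs directing methylation and box H/ACA snoRNAs directing pseudouridylation. In vertebrates they are processed from introns that are spliced out of a host transcript, so 1 transcription event can yield both a spliced host RNA and a snoRNA. Many of the spliced non-coding hosts begin with a pyrimidine-rich start like that of ribosomal protein genes, carry short reading frames and are degraded in the course of translation by nonsense-mediated decay (NMD). MicroRNAs are cut from hairpins in longer transcripts by DROSHA and DICER1, and the host RNA that remains is often unstable.

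Sequences of small RNAs carried by these hosts are shown, because the results below set hosts beside what they hold. ZFAS1 (ENSG00000177410, chr20:49278178-49295738, plus strand, GENCODE 29 on GRCh38) holds 3 closely related box C/D snoRNAs, printed 5′ to 3′ from the GENCODE 29 transcripts with box C (TGATGA) and box D (CTGA) in capitals.
SNORD12C: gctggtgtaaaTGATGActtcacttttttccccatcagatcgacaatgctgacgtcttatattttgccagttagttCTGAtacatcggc
SNORD12B: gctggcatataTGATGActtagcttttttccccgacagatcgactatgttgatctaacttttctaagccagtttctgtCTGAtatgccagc
SNORD12: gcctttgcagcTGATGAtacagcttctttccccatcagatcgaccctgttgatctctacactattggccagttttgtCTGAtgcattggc
SNORD12C lies at chr20:49278940-49279028 and SNORD12B at chr20:49280319-49280409, both in introns, and SNORD12 lies at chr20:49280683-49280772, in an exon of a longer ZFAS1 transcript. SNHG3 (ENSG00000242125, chr1:28505980-28510892, plus strand) holds the pair of H/ACA snoRNAs SNORA73A (chr1:28507366-28507571) and SNORA73B (chr1:28508559-28508762), whose closely similar sequences may share reads and are shown with the ACA box in capitals.
SNORA73A: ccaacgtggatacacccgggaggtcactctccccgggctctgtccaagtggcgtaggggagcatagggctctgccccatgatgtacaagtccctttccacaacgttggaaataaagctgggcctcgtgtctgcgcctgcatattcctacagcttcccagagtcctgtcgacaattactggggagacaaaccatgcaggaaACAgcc
SNORA73B: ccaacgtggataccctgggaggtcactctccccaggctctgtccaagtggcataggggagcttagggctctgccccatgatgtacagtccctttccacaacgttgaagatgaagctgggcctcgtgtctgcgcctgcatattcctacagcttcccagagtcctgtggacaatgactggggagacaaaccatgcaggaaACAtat

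The mature microRNAs of the hosts are given from RefSeq on GRCh38.p14 with the seed, bases 2 to 8, in capitals. All 13 tested microRNA hosts had at least 1 mature sequence in the table. The first set holds the arms of the hosts with the largest changes.
hsa-miR-146a-5p: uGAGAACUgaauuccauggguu
hsa-miR-503-5p: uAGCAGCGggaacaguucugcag
hsa-miR-210-3p: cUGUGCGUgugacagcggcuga
The second set shows the let-7 seed, GAGGUAG, which 4 tested hosts share: MIR100HG, MIR99AHG, MIRLET7BHG and MIR4458HG.
hsa-let-7a-5p: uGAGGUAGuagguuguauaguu
hsa-let-7b-5p: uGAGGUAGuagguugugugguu
hsa-let-7c-5p: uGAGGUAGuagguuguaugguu
hsa-miR-4458: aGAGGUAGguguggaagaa
MIR100HG and MIR99AHG also share the seed ACCCGUA, through miR-100-5p and miR-99a-5p, and both hold a copy of miR-125b-5p.
hsa-miR-100-5p: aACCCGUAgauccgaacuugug
hsa-miR-99a-5p: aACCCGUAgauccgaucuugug
hsa-miR-125b-5p: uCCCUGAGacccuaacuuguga

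Host transcripts were more often higher than lower in MDA-MB-231 shBry vs. control cells. Differentially expressed meant a Benjamini-Hochberg adjusted p below 0.05 by edgeR's quasi-likelihood test over 15186 rows and a fold change above 1.5. Of the 36 tested hosts, 16 were higher in shBry cells (44.4%), 4 were lower (11.1%) and 16 were not called. Over all 15186 rows tested, 17.1% were called higher and 15.1% were called lower. The median log2 fold change of the 36 hosts was 0.29, beside 0.03 over all rows. In 16 of 36 hosts the 3 shBry libraries all lay above the 3 shNC libraries, beside 30.6% of all rows, and in 6 hosts they all lay below, beside 28.9%. By name, 8 of 19 SNHG genes were higher and 2 lower, 5 of 13 microRNA hosts were higher and 1 lower, and 3 of the 4 genes given by name were higher and 1 lower. In bulk RNA, fewer cells that make a transcript and less of it per cell cannot be told apart.

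**Figure D1:**
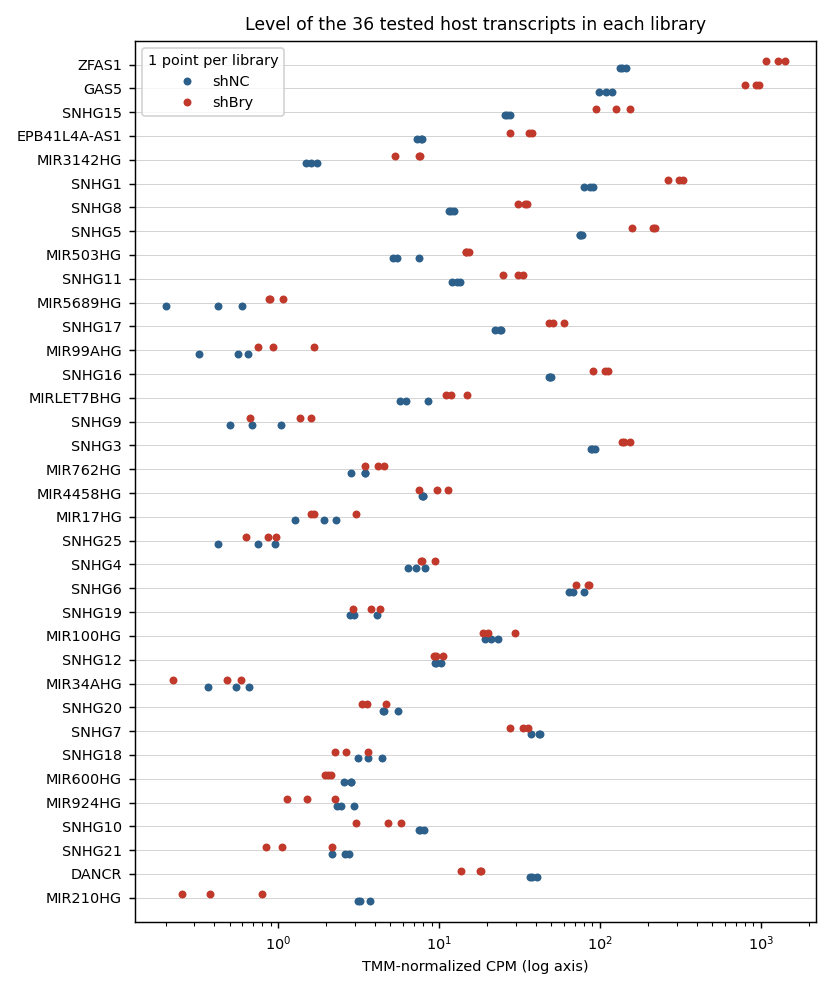
Level of each of the 36 tested host transcripts in each library, in TMM-normalized CPM on a log axis, with blue points for shNC, red points for shBry and 1 point per library, sorted by fold change. ZFAS1 and GAS5 in shBry cells hold the highest levels, and 14 hosts have groups that overlap, SNHG21 near the lower end among them.

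The 4 genes given by name were all called, 3 higher and 1 lower. ZFAS1, a snoRNA host near ZNFX1, stood at 1425, 1085 and 1275 CPM in the shBry libraries and at 138, 146 and 134 CPM in the shNC libraries. The groups lay far apart, and the log2 fold change was 3.18 ± 0.10 (SE, n = 3 libraries per group, edgeR adjusted p = 2.2e-11). GAS5 (ENSG00000234741, chr1:173863900-173868882, minus strand), named for its accumulation in growth-arrested cells, stood at 932, 794 and 973 CPM in shBry and at 99.6, 119 and 110 CPM in shNC libraries. Its log2 fold change was 3.04 ± 0.10 (SE, edgeR adjusted p = 2.7e-11). EPB41L4A-AS1 (chr5:112160526-112164276, plus strand), which holds the H/ACA snoRNA SNORA13 in an intron and has 49.6% of its exon bases in exons of other genes, was at 37.7, 27.9 and 36.1 CPM against 7.88, 7.76 and 7.27 CPM, a log2 fold change of 2.15 ± 0.14. In all 3 of these genes every shBry library exceeded every shNC library. DANCR (chr4:52712404-52720351, plus strand), a non-coding RNA known for restraining differentiation, went the other way. It stood at 18.2, 13.7 and 18.1 CPM in shBry and at 40.6, 37.7 and 36.9 CPM in shNC libraries, with no overlap and a log2 fold change of -1.21 ± 0.13 (SE, edgeR adjusted p = 2.3e-06).

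ZFAS1 and GAS5 made up most of the host RNA in shBry cells. Their counts were 62.7% to 63.4% of the summed CPM of the 36 hosts in the shBry libraries and 27.7% to 29.1% in the shNC libraries. The summed CPM was 2988 to 3716 in shBry and 857 to 911 in shNC libraries. Without ZFAS1 and GAS5 it was 1109 to 1359 in shBry and 619 to 645 in shNC libraries, so that these groups did not overlap either. Per kilobase of exon, the level of ZFAS1 was 562 CPM in shBry and 62.0 CPM in shNC cells, GAS5 was at 248 and 30.2, SNHG1 at 80.4 and 22.8, and SNHG5 at 70.4 and 27.1. SNHG6, which was not called, was at 64.5 and 56.8 CPM per kilobase and so ranked near ZFAS1 in shNC cells, by level and not by difference.

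Among the SNHG genes, SNHG15 (chr7:44983023-44986961, minus strand) had the largest rise. It stood at 155, 95.0 and 126 CPM in shBry and at 26.5, 27.7 and 25.9 CPM in shNC libraries, and the log2 fold change was 2.23 ± 0.14 (SE, edgeR adjusted p = 1.9e-08). SNHG1 (chr11:62851988-62855914, minus strand), which carries 8 box C/D snoRNAs, was at 312, 264 and 330 CPM against 79.8, 87.2 and 90.2 CPM, with a log2 fold change of 1.82 ± 0.10. In both genes the shNC libraries lay close together and the shBry libraries far above them.
SNHG8 (chr4:118278709-118279823, plus strand) was at 35.0, 31.2 and 34.3 CPM in shBry and at 11.6, 12.4 and 11.8 CPM in shNC libraries, a log2 fold change of 1.49 ± 0.11. SNHG5 (chr6:85660950-85678748, minus strand) was at 221, 159 and 213 CPM against 75.5, 77.2 and 75.5 CPM, a log2 fold change of 1.38 ± 0.11. Both genes had no overlap between groups, and the shNC libraries were close to each other.
SNHG11 was at 33.4, 24.9 and 31.0 CPM in shBry and at 13.0, 13.6 and 12.0 CPM in shNC libraries, again without overlap, and had a log2 fold change of 1.21 ± 0.13. The other rises were smaller: SNHG17 with 1.17 ± 0.11, SNHG16 with 1.08 ± 0.09 and SNHG3 with 0.67 ± 0.08. SNHG3 rose from a mean of 90.5 to 144 CPM and passed the fold limit narrowly. The 2 SNHG genes called lower were weakly expressed. SNHG10 stood at a mean of 7.77 CPM in shNC and 4.56 CPM in shBry cells, a log2 fold change of -0.78 ± 0.21 (SE, edgeR adjusted p = 0.0062). SNHG21 had a log2 fold change of -0.91 ± 0.33 (SE, edgeR adjusted p = 0.030), and its shBry and shNC libraries overlapped. The call of SNHG21 was lost without shBry replicate 2 or 3 or shNC replicate 2 or 3 (edgeR adjusted p of 0.064 to 0.098).

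A number of well expressed hosts were not called. SNHG6 stood at means of 80.5 and 70.8 CPM in shBry and shNC cells, a log2 fold change of 0.18 ± 0.10. SNHG7 was at 32.2 and 40.6 CPM, with a log2 fold change of -0.34 ± 0.11 and an adjusted p of 0.021 by edgeR, but its fold change lay under the limit of 1.5. MIR100HG was at 22.8 and 21.2 CPM, with shBry replicate 2 the highest of all 6 libraries at 29.6 CPM. These 3 had the highest mean levels among the hosts that were not called. SNHG12 was level in both groups, with a log2 fold change of 0.01 ± 0.14, and SNHG9 had 0.69 ± 0.41 with overlapping groups. The remaining ones, SNHG4, SNHG18, SNHG19, SNHG20, SNHG25, MIR17HG, MIR34AHG, MIR600HG, MIR762HG, MIR924HG and MIR4458HG, had log2 fold changes of -0.66 to 0.32.

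Among snoRNA hosts the calls differed with the mean level over the 6 libraries. Of 14 snoRNA hosts with a mean of at least 10 CPM, 11 were higher, 1 was lower and 2 were not called, whereas of 9 snoRNA hosts under 10 CPM none was higher, 2 were lower and 7 were not called. The microRNA hosts did not follow this split: of 11 under 10 CPM, 4 were higher, 1 was lower and 6 were not called, and of 2 at 10 CPM or more, MIR503HG was higher and MIR100HG was not called. Over all rows the share called higher was 15.4% at 10 CPM or more and 19.9% under 10 CPM, and the share called lower was 14.0% and 17.0%. The mean includes the shBry libraries, so a rise in shBry cells lifts a host in this split, and the split is a description. EPB41L4A-AS1, at 33.9 CPM in shBry and 7.63 CPM in shNC cells, reached 10 CPM only through the shBry group. So did MIR503HG, at 14.9 and 6.09 CPM. By the shNC level both would be hosts under 10 CPM that were called higher. A lower level leaves fewer counts and a wider error, and the part of depth in this difference was not tested.

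**Figure D2:**
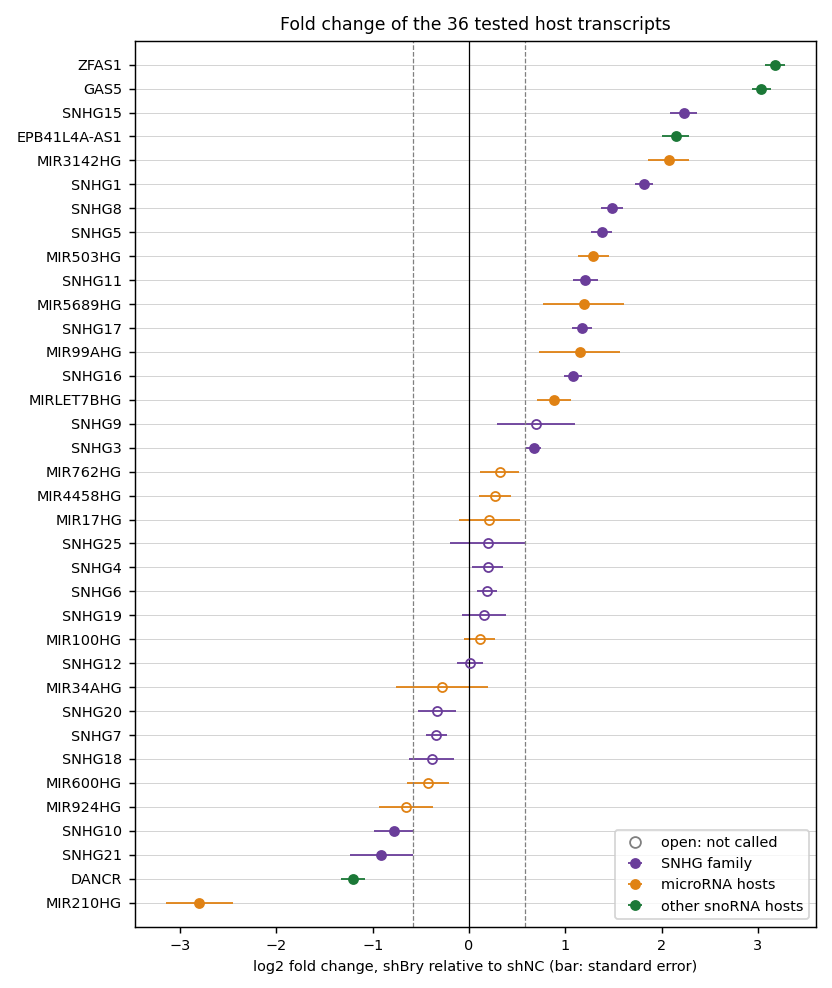
Log2 fold change of shBry relative to shNC for the 36 tested hosts, with the standard error as a bar, coloured by kind (SNHG family, microRNA hosts, and the 4 hosts given by name), and open circles for hosts that were not called. The dashed lines mark the fold change limit of 1.5, and points run from 3.18 for ZFAS1 to -2.80 for MIR210HG.

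The microRNA hosts changed in both directions. MIR210HG (chr11:565660-568457, minus strand), which holds the hypoxia-induced miR-210, had the largest fall of all hosts. It stood at 0.377, 0.253 and 0.798 CPM in shBry and at 3.71, 3.22 and 3.16 CPM in shNC libraries, with no overlap. Its log2 fold change was -2.80 ± 0.35 (SE, edgeR adjusted p = 1.3e-05), from 31 counts in the shBry group.
MIR3142HG (chr5:160438594-160487426, plus strand), the host of miR-146a, which dampens inflammatory signalling, was at 5.33, 7.58 and 7.53 CPM in shBry and at 1.74, 1.61 and 1.50 CPM in shNC libraries. The log2 fold change was 2.07 ± 0.21 (SE, edgeR adjusted p = 2.1e-06). MIR503HG (chrX:134543337-134546632, minus strand) was at 15.3, 14.7 and 14.7 CPM against 5.18, 7.57 and 5.51 CPM, a log2 fold change of 1.29 ± 0.16. In both hosts every shBry library lay above every shNC library.
Of the 4 hosts that carry the let-7 seed, MIRLET7BHG rose by 0.88 ± 0.18 on the log2 scale (edgeR adjusted p = 0.0009) and MIR99AHG by 1.15 ± 0.42 (edgeR adjusted p = 0.034), whereas MIR4458HG and MIR100HG had 0.27 and 0.11 and were not called. MIR99AHG and MIR5689HG, which had a log2 fold change of 1.19 ± 0.42 (edgeR adjusted p = 0.028), were weakly expressed, at means of 1.12 and 0.949 CPM in shBry cells. MIR5689HG had 26 counts in the shNC group and reached the 60 count limit only through the shBry group, so its call is a description, and 14 hosts were higher when at least 10 counts were asked in every library. The call of MIR5689HG was lost without shBry replicate 1 or shNC replicate 2 or 3 (edgeR adjusted p of 0.068 to 0.11), and that of MIR99AHG without shBry replicate 2 or shNC replicate 1 or 2 (edgeR adjusted p of 0.068 to 0.20).
The mature microRNAs were not measured here, since only 1 of 29 microRNA rows inside tested hosts reached 60 counts. That row was MIR503, with 26, 20 and 27 counts in shBry and 7, 6 and 8 counts in shNC libraries, a log2 fold change of 1.75 ± 0.40 (SE, edgeR adjusted p = 0.002). It reached 60 counts only through the shBry group, so that this rise is a description.

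The hosts below 60 counts are named for completeness. No count was found in any library for MIR133A1HG, MIR155HG, MIR202HG, MIR205HG, MIR31HG, MIR3663HG, MIR381HG, MIR3945HG, MIR3976HG, MIR4290HG, MIR4300HG, MIR4307HG, MIR4432HG, MIR663AHG, MIR670HG, MIR7515HG and SNHG24, which makes 17 genes. Between 1 and 59 counts were found for 16 genes: MIR2052HG, MIR3681HG, MIR548XHG, MIRLET7DHG, MIR4500HG, MIR181A1HG, MIR137HG, SNHG22, MIR217HG, MIR4697HG, MIR497HG, MIR22HG, MIR646HG, MIR325HG, MIR193BHG and MIR181A2HG. MIR325HG had 20, 16 and 7 counts in shBry and 2, 0 and 1 counts in shNC libraries, and was not tested.

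The snoRNA rows inside the hosts were compared with the hosts next. The table has rows for 84 small RNAs located inside tested hosts, of which 29 snoRNA rows and 1 microRNA row had at least 60 counts and 54 had fewer. Standard libraries capture such short RNAs poorly, reads that lie in a host exon may have been left out as ambiguous, and the counting mode and use of strand are not given in the sources used here. Of the 29 snoRNA rows, 9 were higher, 1 was lower and 19 were not called. Of all 98 snoRNA and scaRNA rows tested in the whole table, 16.3% were called higher and 3.06% lower. The 98 rows include these 29, and the 16 rows called higher among them include the same 9, so this share is not independent.

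In GAS5, SNHG1, SNHG15 and ZFAS1, all called higher, the tested snoRNA rows had smaller fold changes than the host. Only 6 of the 16 hosts called higher had tested snoRNA rows. In these 6, 23 rows were tested, of which 7 were higher, none was lower and 16 were not called. Of the 23, 21 had a log2 fold change below that of the host, but GAS5 gave 9 rows and SNHG1 gave 8. Rows of 1 host are not independent, and SNORA71C of SNHG17, counted as below, was level with its host (1.16 beside 1.17). GAS5 had a log2 fold change of 3.04, and its 9 tested snoRNA rows had 0.05 to 1.37, with 4 called higher. SNORD81 was counted at 12, 19 and 18 in shBry and at 3, 4 and 11 in shNC libraries, a log2 fold change of 1.37 ± 0.50 (edgeR adjusted p = 0.033). SNORD80 was counted at 72, 110 and 74 against 60, 83 and 95, a log2 fold change of 0.05 ± 0.23, with overlapping groups. SNORD47 (1.16 ± 0.34), SNORD44 (1.24 ± 0.36) and SNORA103 (1.36 ± 0.51) were the other GAS5 rows that were called. SNORD81 and SNORA103 had 18 and 19 counts in the shNC group and reached 60 counts only through the shBry group, so their values are a description. Of the 10 small RNA rows called higher in all, MIR503 included, 4 had under 30 counts in the lower group (SNORA44 of SNHG12 is the other one). The 10 rows came to 6 with DESeq2 and to 6 without shBry replicate 2, shNC replicate 1 or shNC replicate 2.
SNHG1 gave a contrast over many rows as well. Its log2 fold change was 1.82, whereas its 8 snoRNA rows lay between -0.55 and 0.72 and none was called. SNORD22 had 27, 41 and 44 counts in shBry and 57, 50 and 51 counts in shNC libraries, so its groups did not overlap and lay in the direction opposite to the host. SNORD31 had 79, 103 and 73 counts against 46, 57 and 70 counts, a log2 fold change of 0.51 ± 0.23.
ZFAS1 had 1 tested row, SNORD12B, printed above. It was counted at 15, 24 and 20 in shBry and at 19, 16 and 15 in shNC libraries, a log2 fold change of 0.19 ± 0.33 beside 3.18 for the host. SNORD12C was counted at 7, 20 and 9 against 4, 3 and 4, and was under the 60 count limit.

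**Figure D3:**
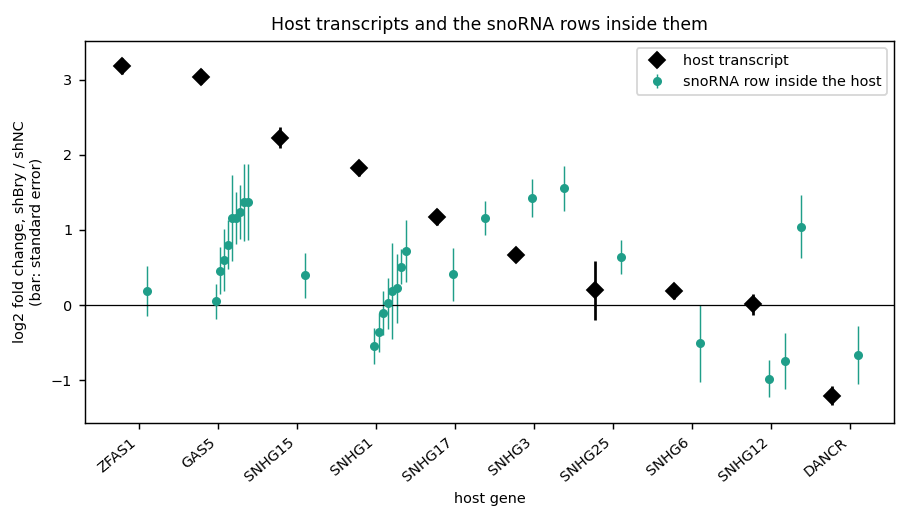
Log2 fold change of 10 host transcripts (black diamonds) and of the 29 tested snoRNA rows inside them (green points), shBry relative to shNC, with standard errors as bars. The green points lie below the diamond at ZFAS1, GAS5, SNHG15 and SNHG1 and above it at SNHG3.

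SNHG3 was the host among those called higher whose tested snoRNA rows had larger fold changes than the host. SNORA73A was counted at 37, 86 and 62 in shBry and at 20, 23 and 17 in shNC libraries, a log2 fold change of 1.55 ± 0.29. SNORA73B was counted at 93, 114 and 93 against 24, 44 and 40, a log2 fold change of 1.43 ± 0.25, beside 0.67 for SNHG3. Both rows were called higher, but reads of these similar copies may be split between them. SNHG17 held SNORA71C, which was called higher with 1.16 ± 0.22, and SNORA71A, at 0.41 ± 0.35, which was not called, and these copies are closely similar as well. SNHG12, itself level between groups, held SNORA61, which was lower at -0.98 ± 0.25, and SNORA44, which was higher at 1.04 ± 0.42 (edgeR adjusted p = 0.049). SNHG25, not called at 0.20 ± 0.39, held SNORD104, which had 52, 62 and 61 counts in shBry and 34, 37 and 38 counts in shNC libraries and was higher at 0.64 ± 0.23 (edgeR adjusted p = 0.031).

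The contrast was also put as snoRNA counts per 1000 host counts in each library. For GAS5, with 11 rows summed, this ratio was 12.9, 25.1 and 14.6 in shBry and 77.3, 88.7 and 108 in shNC libraries (17.5 ± 6.58 and 91.3 ± 15.5, SD, n = 3). For ZFAS1 it was 0.869, 1.98 and 1.60 against 10.3, 9.08 and 10.5 (1.48 ± 0.565 and 9.96 ± 0.773, SD, n = 3). For SNHG1 it was 35.3, 52.8 and 39.2 against 148, 133 and 148 (42.4 ± 9.20 and 143 ± 8.51, SD, n = 3). The 3 shBry ratios lay below the 3 shNC ratios in each of these hosts, with a two-sided exact permutation p of 0.1, the smallest that 3 against 3 libraries can give.
The ratio was computed for the 16 hosts that had snoRNA counts in every library. It lay lower in shBry cells without overlap in 7 hosts, namely GAS5, ZFAS1, SNHG1, SNHG8, SNHG11, SNHG12 and SNHG15. It lay higher without overlap in SNHG3 alone, and overlapped in 8 hosts. The snoRNA rows of SNHG8 and SNHG11 were all below 60 counts. Their sums were 9, 6 and 3 counts in shBry and 5, 7 and 6 in shNC libraries for SNHG8. For SNHG11 they were 7, 3 and 3 against 16, 13 and 17 counts. The exact permutation p was 0.1 in each of the 8 hosts without overlap. This is the smallest possible value, so the test could not reach 0.05 and decides nothing here. The counts of hosts without overlap have no share over all rows beside them and are a description. Of the 7 hosts with a lower ratio, all but SNHG12 had been called higher. The ratio has the host count in its denominator and so moves with the host's own change. The summed snoRNA level itself was 15.4 ± 4.07 CPM in shBry and 10.1 ± 2.14 CPM in shNC cells for GAS5 (SD, n = 3). These groups did not overlap (exact permutation p = 0.1). The sums before scaling did, at 223, 472 and 321 counts in shBry and 168, 224 and 237 in shNC libraries. The level was 12.6 ± 1.51 and 12.3 ± 0.957 CPM for SNHG1, and 1.81 ± 0.497 and 1.38 ± 0.0511 CPM for ZFAS1, both pairs overlapping. shBry replicate 2 had the lowest value of the shBry libraries in 13 of the 16 hosts called higher, against 42.9% of all rows, and it had the highest snoRNA sum of the 3 for GAS5, at 472 counts beside 223 and 321. The part of this library in the ratios was not tested.

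**Figure D4:**
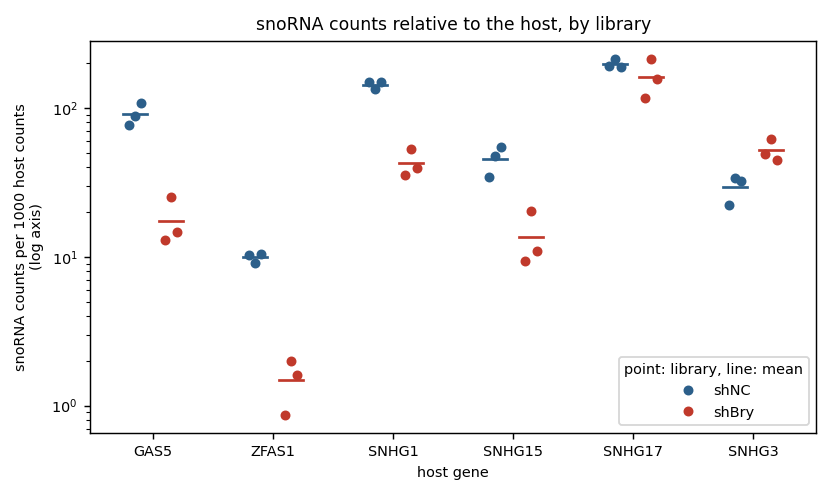
snoRNA counts per 1000 host counts in each library on a log axis, for 6 hosts, with a line at the mean of each group. The red shBry points lie below the blue shNC points for GAS5, ZFAS1, SNHG1 and SNHG15, overlap for SNHG17 and lie above for SNHG3.

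Genes beside the hosts were set next to them, because a shared promoter or overlapping exons could link their counts. There were 19 pairs of a tested host with a tested gene that overlapped it or started within 1000 bases of its start, for 17 hosts. For the 7 hosts called higher with such a gene, 8 pairs were found. In these, 3 neighbours were higher, none was lower and 5 were not called, beside 17.1% higher and 15.1% lower over all rows. SLC3A2, which encodes a heavy chain of amino acid transporters, starts 188 bases from SNHG1 on the opposite strand. It stood at 1261, 1013 and 1167 CPM in shBry and at 241, 245 and 232 CPM in shNC libraries, a log2 fold change of 2.26 ± 0.09 (SE, edgeR adjusted p = 1.8e-10), beside 1.82 for SNHG1. LINC00518 rose by 2.27 ± 0.33 on the log2 scale beside 1.19 for MIR5689HG, and PRR34 by 1.45 ± 0.42 beside 0.88 for MIRLET7BHG. Both overlap their hosts, so strand-blind counts of these pairs may be mixed. PRR34, among the 3 neighbours called higher, was counted at 18, 21 and 26 in shBry and at 12, 7 and 4 in shNC libraries. It reached the count limit for testing only through the shBry group, so its call is a description.

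ZNFX1, ZBTB37 and EPB41L4A, beside ZFAS1, GAS5 and EPB41L4A-AS1, were not called. ZNFX1 starts 248 bases from ZFAS1 on the opposite strand and overlaps it, and 42.9% of the exon bases of ZFAS1 lie in exons of other genes. The shBry libraries of ZNFX1 lay narrowly above, at 198, 207 and 192 CPM beside 185, 174 and 173 CPM in shNC libraries, a log2 fold change of 0.16 ± 0.08 (SE, edgeR adjusted p = 0.083). ZBTB37 had 0.52 ± 0.22 (edgeR adjusted p = 0.057) and EPB41L4A had -0.49 ± 0.19 (edgeR adjusted p = 0.045, under the fold limit). RCC1, which starts 37 bases from SNHG3 on the same strand, had 0.24 ± 0.07 (edgeR adjusted p = 0.015, under the fold limit). Of 25 hosts in which under 10% of exon bases lie in other genes' exons, 12 were higher and 1 was lower, beside 17.1% and 15.1% of all rows.

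**Figure D5:**
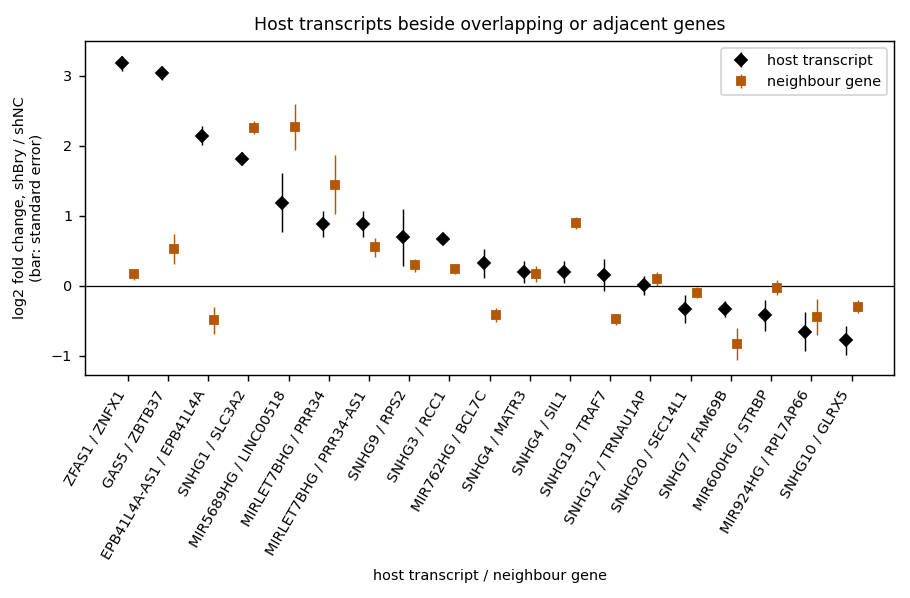
Log2 fold change of each host transcript (black diamonds) beside its overlapping or adjacent gene (brown squares), shBry relative to shNC, with standard errors as bars. SLC3A2 sits near SNHG1 at 2.26, while ZNFX1 at 0.16, ZBTB37 at 0.52 and EPB41L4A at -0.49 sit below the hosts they neighbour.

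Stretches between the starts of SNHG1 and SLC3A2 and of ZFAS1 and ZNFX1 are shown. The reason is that both genes of the first pair were called higher and only ZFAS1 of the second. Each runs from the base next to the neighbour's start (GENCODE 29) to 50 bases into the host (RefSeq), with those 50 bases in capitals. With the RefSeq host starts, 216 bases lie between the starts for SNHG1 and 215 for ZFAS1. The distances of 188 and 248 bases given above use GENCODE 29 for both genes. By that annotation the ZFAS1 stretch lies inside ZFAS1, so the 2 sources differ on whether ZFAS1 overlaps ZNFX1. The SNHG1 stretch is chr11:62855836-62856101 and is read on the minus strand, and the ZFAS1 stretch is chr20:49278427-49278691 on the plus strand, both on GRCh38.p14.
SNHG1: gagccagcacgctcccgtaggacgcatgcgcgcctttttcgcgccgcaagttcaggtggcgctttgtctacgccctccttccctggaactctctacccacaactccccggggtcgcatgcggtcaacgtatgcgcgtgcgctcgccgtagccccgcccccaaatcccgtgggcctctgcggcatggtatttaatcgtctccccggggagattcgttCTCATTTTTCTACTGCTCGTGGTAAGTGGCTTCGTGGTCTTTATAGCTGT
ZFAS1: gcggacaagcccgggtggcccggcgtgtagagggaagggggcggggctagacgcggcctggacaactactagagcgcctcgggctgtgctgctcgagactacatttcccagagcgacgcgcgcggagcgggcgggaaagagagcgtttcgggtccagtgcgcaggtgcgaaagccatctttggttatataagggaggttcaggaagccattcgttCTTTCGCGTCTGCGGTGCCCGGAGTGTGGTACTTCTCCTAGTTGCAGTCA
Both are rich in G and C between the starts, at 63.9% and 63.3% of bases. Within 10 bases of the start, the longest run of C or T was 7 bases in each host.

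A run of at least 8 C or T bases within 10 bases of the start was found in 8 of 32 tested hosts with a promoter in the RefSeq table (25%), in 3 of 15 called higher (20%) and in 18.8% of all 27305 genes of that table, where a gene counts if any of its promoters holds the run. The searched motifs, on both strands in the window of 250 bases before to 50 after the start, were CACGTG, TGACGTCA and TGATGCAA. CACGTG occurred in 1 host, SNHG7, and in 8.77% of all genes of the table, and TGACGTCA and TGATGCAA occurred in none of the hosts and in 2.25% and 1.08% of all genes. These matches describe the letters in this window.

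Genes of the pathways around the hosts were counted from lists chosen for this purpose with earlier results of these data known. The counts are therefore descriptions, to be read beside the 17.1% of all rows that were called higher and the 15.1% called lower. The 9 coding targets of nonsense-mediated decay included 7 that were higher and none that was lower, with a median log2 fold change of 1.93 beside 0.03 over all rows. UPP1 (3.50 ± 0.10), a uridine phosphorylase, GADD45A (3.82 ± 0.12), a growth arrest gene, and ATF3 (3.04 ± 0.10), a stress transcription factor, had the smallest adjusted p in this list, and all 3 are also known stress-response genes. Of 18 decay factors, 3 were higher (16.7%, near the share of all rows), 1 was lower and 14 were not called, with RNPS1 at -0.79 ± 0.08, ETF1 at 0.68 ± 0.09 and MAGOHB at 0.93 ± 0.14. Of 17 tested genes of snoRNA-protein particles, 4 were higher, 3 were lower and 10 were not called, and NOP58 (1.45 ± 0.11) and DKC1 (1.08 ± 0.10) rose while NHP2 (-1.04 ± 0.09) fell.

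In the microRNA processing list 3 of 13 were higher (23.1%), namely XPO5, AGO2 and PRKRA with 0.80, 0.79 and 0.62 on the log2 scale. None was called lower, and the median log2 fold change was -0.004. With an edgeR adjusted p below 0.05 but under the fold limit, DROSHA (-0.54), TARBP2 (-0.50), DGCR8 (-0.37) and TNRC6A (-0.30) fell. DICER1 (0.47) and AGO4 (0.36) rose in the same way. Of 98 tested genes listed as ribosomal proteins and translation factors, 9 were higher (9.18%), 5 were lower (5.10%) and 84 were not called. Their median log2 fold change was 0.18. The list was drawn up by gene name for a pyrimidine start, which was not checked in the sequence of its genes. RPL22L1 (3.05 ± 0.11) and RPL10A (1.12 ± 0.10), both ribosomal protein genes, had the smallest adjusted p in it. Of 215 tested coding genes that host snoRNAs, 30 were higher (14.0%) and 22 were lower (10.2%). Of the 36 tested hosts, 44.4% were higher and 11.1% lower, but 13 of these are microRNA hosts, so the 2 sets are unlike. NCAPD2 (-2.21 ± 0.08), ODC1 (1.82 ± 0.10) and HSPA8 (-1.17 ± 0.08) had the smallest adjusted p in that list. Of 3 nuclear non-coding RNAs, MALAT1 was higher (0.67 ± 0.20, with overlapping groups) and KCNQ1OT1 was lower (-0.97 ± 0.32). The higher call was lost under DESeq2 and without shBry replicate 2 or shNC replicate 1, and the lower call without shBry replicate 3 or shNC replicate 2. The differences between the shares of these lists were not tested.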

How the data were processed

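RNA of 3 shBry and 3 shNC libraries of MDA-MB-231 cells was sequenced by a commercial provider, and the authors deposited raw counts per gene, whole numbers without normalization. The submitters' processing notes name HISAT2 2.0.4, HTSeq and GRCh38. Annotation release, counting mode and strand setting are not given in the sources used here. Samples were grouped by their shRNA label.

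From the deposited counts, rows with at least 60 counts over 6 libraries (15186) were scaled with TMM and compared with edgeR 4.0.16 (R 4.3.3; glmQLFit and glmQLFTest, no block). The standard error is the log2 fold change over the square root of F. Fold limit 1.5 follows the study, whose methods for the sequencing step name no test. The test was tried on simulated data: of 200 changed rows among 15186, 190 were recovered, and 12 unchanged rows were called. The changed rows lay above 1 CPM and changed by a fold of 2 or more, so weaker rows and smaller changes were not covered. Far fewer rows were changed than are called in these data. Small RNA locations came from GENCODE 29, with some from RefSeq on GRCh38.p14, and 67 of 69 hosts matched GENCODE 29, 66 by symbol and MIR924HG by its Ensembl ID. Exact permutation tests used SciPy 1.17.1. CPM are TMM-normalized.

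Named individually were every called host, the 4 given by name, the 3 uncalled hosts with the highest mean CPM, and from each list up to 3 called genes with the smallest adjusted p. Per-library values went to the 4 and to the 8 largest changes at 1 CPM or more. SNORD rows, neighbours, MIR325HG, other uncalled hosts and uncalled microRNA processing genes were named after their values were seen. The hosts and lists were chosen with earlier results of these data known, and the decay target list was written by hand. Alternatives were no TMM, DESeq2 1.42.0, limma-voom 3.58.1, filterByExpr (minimum 10), no filter, at least 10 counts in every library, no fold limit, a fold limit of 2, unadjusted p, a replicate block and each library left out. The block and single-library fits for small RNA rows, and the single-library fits for lists, were added after the data were seen.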

Additional observations from a re-analysis of the deposited data

How the results depend on the processing

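The count of hosts called higher was 14 to 16 and the count called lower was 2 to 5 over all alternatives. With a fold limit of 2, 14 were higher and 2 were lower (16 and 4 as reported). Leaving out 1 library gave 14 to 16 higher and 3 to 4 lower, and a median log2 fold change of 0.30 to 0.39 (0.29 as reported). Of 296 alternatives for 23 named hosts, 284 kept the side of the threshold and no called host reversed. MIR100HG, not called, ranged from -0.16 to 0.23 without single libraries. The 12 that lost the call were MIR5689HG (DESeq2 adjusted p = 0.088, and adjusted p of 0.068 without shBry replicate 1, 0.074 without shNC replicate 2 and 0.11 without shNC replicate 3, edgeR), MIR99AHG (DESeq2 adjusted p = 0.084, and edgeR adjusted p of 0.20 without shBry replicate 2, 0.13 without shNC replicate 1 and 0.068 without shNC replicate 2) and SNHG21 (edgeR adjusted p of 0.064 to 0.098 without shBry replicate 2, shBry replicate 3, shNC replicate 2 or shNC replicate 3). The cause was not tested.

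Small RNA rows called higher numbered 10 as reported, 6 under DESeq2, and 6 to 10 with 1 library left out (6 without shBry replicate 2, shNC replicate 1 or shNC replicate 2). With 1 library left out, decay factors called lower numbered 1 to 2 (2 without shBry replicate 2), microRNA processing genes called lower 0 to 1 (1 without shNC replicate 2), translation genes called higher 5 to 13 (5 without shBry replicate 1) and nuclear non-coding RNAs 0 to 1 in each direction. Under DESeq2, 0 of the 3 nuclear RNAs were higher. A window of 50 bases around the start put a pyrimidine run in 53.1% of hosts and 42.6% of all genes of the promoter table. The cause was not tested.

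The deviations of same-numbered libraries from their group means had correlations of 0.18, -0.08 and -0.03, beside -0.21 to 0.22 for libraries of different number. With 3 libraries per group these values cannot settle whether the numbers pair the libraries. With the replicate block, 16 hosts were higher and 5 lower, the median was 0.28, 9 small RNA rows were higher and 1 lower, and over all rows 2570 were higher and 2309 lower (2597 and 2300 without it). Counts near the limit of 60 leave the errors of small RNA rows wide.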
